A study of Mus musculus with 20 samples.

Results

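The comparison described here is the interaction of genotype and imiquimod (IMQ) in mouse bone marrow neutrophils: whether IMQ changed gene expression in the same direction, and by the same amount, in mice with and without Bmal1 in their myeloid cells. It used all 20 of the 20 libraries, 5 from each of 4 groups, and tested 14030 of the 24421 genes counted. The groups were untreated wild-type (WT) mice, untreated Bmal1Mye-/- mice (KO), WT mice given IMQ cream for 6 weeks and KO mice given the same cream for 6 weeks. All mice were female, and treatment began at 8 to 10 weeks of age with 5% cream on the ears 3 times per week. The WT mice were C57BL/6J and were purchased, whereas the KO mice (floxed Bmal1 with Cre driven from the Lyz2 gene) were bred in the study's own facility, so breeding source and linked alleles cannot be told apart from the deletion. Lyz2 drives Cre in neutrophils, monocytes and macrophages alike, and the cells were enriched from marrow by negative selection rather than sorted.

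Neutrophils are short-lived phagocytes that mature in the bone marrow. Dividing precursors fill the primary granules first, then stop dividing while they fill the secondary granules, and the mature cells acquire the chemoattractant receptors used to leave the marrow. BMAL1, encoded by Arntl, is the transcription factor that pairs with CLOCK on E-box sequences to drive the daily clock and its repressors of the Per and Cry families. IMQ is an agonist of TLR7, a receptor for single-stranded RNA, and long-term skin application induces lupus-like disease in mice.

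The contrast was computed as the KO response (KO IMQ minus KO untreated) minus the WT response (WT IMQ minus WT untreated), on the log2 scale. A positive value means that the KO response lay above the WT response, whether or not either was a rise. Expression levels are given as CPM, read counts scaled to a common library size with TMM factors, and errors of fold changes are standard errors (SE). A gene is "called" where its p, from the quasi-likelihood test of edgeR and adjusted over the 14030 genes by the Benjamini-Hochberg method, was below 0.05. CPM are not divided by gene length, so levels are compared between libraries and not between genes. The libraries held between 30782166 and 92613500 reads on genes (median 66094896). IMQ libraries varied more among themselves than untreated ones: the median SD of log2 CPM was 0.213 in untreated WT, 0.192 in untreated KO, 0.449 in WT IMQ and 0.445 in KO IMQ.

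The genotype labels were checked first. Arntl was measured at 1.17, 1.56, 1.71, 0.895 and 1.39 CPM in untreated WT and at 1.1, 0.572, 0.707, 0.468 and 0.758 in untreated KO. It stood at 0.562, 1.07, 1.87, 1 and 1.04 CPM in WT IMQ and at 1.52, 0.414, 0.532, 0.337 and 0.71 in KO IMQ. The genotypes overlapped, and these counts cover the whole gene, not the deleted part alone. The average genotype difference of Arntl was -0.77 ± 0.27 (log2 ± SE, adjusted p = 0.363 by edgeR), and its interaction was 0.25 ± 0.54 (adjusted p = 0.851). Lyz2, the lysozyme gene that carries Cre in the KO line, separated the genotypes without overlap: the 5 untreated WT libraries lay between 10427 and 12033 CPM, the WT IMQ libraries between 2465 and 10627, and all 10 KO libraries between 58.8 and 177.

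The libraries had the transcripts of neutrophils at high levels in all groups. S100a8 and S100a9, the subunits of calprotectin, averaged at least 22437 and 30248 CPM in each group, and the secondary granule gene Ngp at least 26494. Ly6g was not analysed here. Markers of other cells were far lower but not absent. The summed CPM of the 13 monocyte markers ran from 980 to 1247 in the untreated libraries, from 1170 to 1858 in WT IMQ and from 863 to 4108 in KO IMQ. The 9 eosinophil markers summed to 37.9 to 143 CPM in untreated libraries, 21.7 to 42.8 in WT IMQ and 43.8 to 213 in KO IMQ. The 9 erythroid markers tested ranged from 81.5 to 409 CPM in untreated libraries, 195 to 997 in WT IMQ and 61 to 721 in KO IMQ. In bulk RNA, fewer cells of a type and less RNA per cell cannot be told apart.

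Some IMQ libraries stood apart from the rest of their group. On the first principal component, which held 35.0% of the variance, WT IMQ 5 (-37.1) and KO IMQ 2 (-10.7) lay within the range of the untreated libraries (-57 to -7.63), whereas the other 8 IMQ libraries lay between 19.5 and 92.5. WT IMQ 3 had the highest value, 92.5. Results that rest on these libraries are given with and without them.

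No gene passed the test for the interaction. Of 14030 genes, 0 were called (0%), and the smallest adjusted p was 0.640. At an unadjusted p below 0.05 there were 721 genes (5.14%), of which 394 (2.81%) had a positive and 327 (2.33%) a negative interaction. DESeq2 and limma likewise called 0 genes, with 929 and 676 at an unadjusted p below 0.05. The response values of the 5 WT IMQ and 5 KO IMQ libraries did not overlap for 173 genes (1.23%), and for 35 genes (0.249%) every WT library moved one way and every KO library the other.

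These data bound the interaction closely for some genes and loosely for others. The median SE of a response was 0.236 in WT and 0.237 in KO, and that of the interaction was 0.334. The 95% interval of the interaction lay within 1 log2 unit of 0, a 2-fold difference, for 6551 genes (46.7%). For 4992 genes (35.6%) its half-width was over 1 log2 unit, so the interval around a fitted 2-fold difference would include 0 there. These intervals are not adjusted for the number of genes, so a narrower one does not mean that a 2-fold difference would be called. Spata5l1, for example, had an interaction of 1.19 with an interval of 0.56 to 1.81, and an adjusted p of 0.640 by edgeR.

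The directions of the responses were compared next. IMQ changed 554 genes in WT (3.95%), 329 of them higher (2.34%) and 225 lower (1.6%). It changed 3292 genes in KO (23.5%), 2024 of them higher (14.4%) and 1268 lower (9.04%). At an unadjusted p below 0.05 the shares were 22.3% in WT and 39.3% in KO. Both calls held for 344 genes, which were 62.1% of the WT list and 10.4% of the KO list. All 344 moved in the same direction. Of the 554 genes called in WT, 543 (98.0%) had the same sign in KO, and of the 3292 called in KO, 3173 (96.4%) had the same sign in WT. Over all genes the sign was shared by 71.3%, and the responses had a Pearson r of 0.70 and a Spearman rho of 0.64. Without WT IMQ 3 the sign was shared by 58.6% of all genes and by 3280 of the 4499 then called in KO (72.9%). These are correlations across genes, which are not independent replicates, and the responses share no library.

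**Figure D1:**
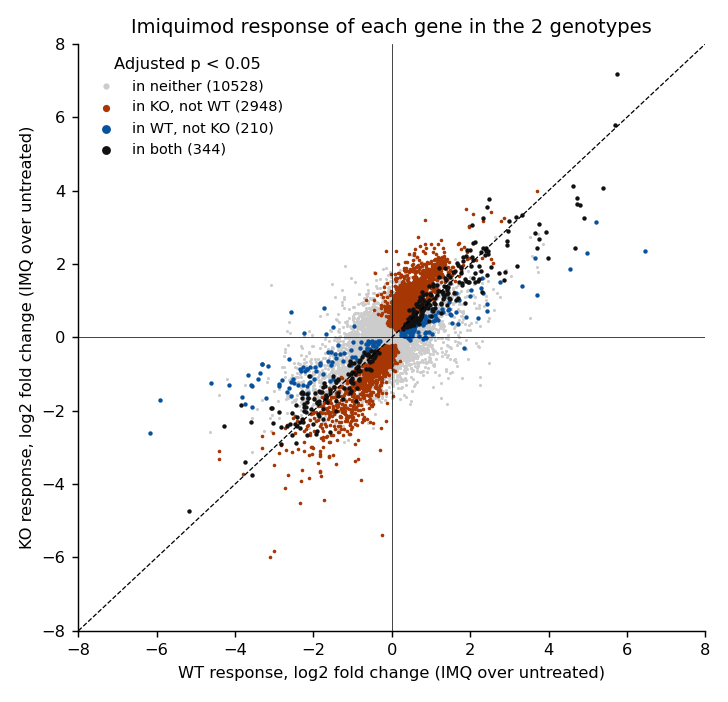
Each point is 1 of the 14030 genes tested, with the log2 fold change of IMQ over untreated in WT on the x axis and in KO on the y axis, and the dashed line marks equal responses. The 344 genes called in both genotypes (black) lie in the 2 quadrants of shared direction, as do most of the 2948 called in KO and not WT (brown) and the 210 called in WT and not KO (blue).

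The unequal numbers called in WT and KO are not a test of unequal responses, and they depended on single libraries. Without WT IMQ 5 the WT response had 1989 called genes in place of 554, and without any 1 of the other 9 WT libraries it had between 48 (untreated WT 2) and 193 (WT IMQ 4). It also moved with KO libraries, which enter through the shared estimate of the spread, to 949 without KO IMQ 1 and 343 without untreated KO 5. The KO response had 4499 called genes without WT IMQ 3, and 2063, 2160, 1612, 2190 and 1765 without untreated KO 1, 2 and 4 and KO IMQ 1 and 5. The size of the responses over all genes was closer than the counts: the root mean square log2 fold change was 0.71 in WT and 0.79 in KO.

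Genes for a comparison of size were chosen by the average of both responses, a contrast that is orthogonal to the interaction. IMQ changed 4583 genes on average (32.7%), 2618 of them higher (18.7%) and 1965 lower (14%). Of all genes 71.3% had the same sign in both genotypes, and of the 4583 genes 4576 did. Opposite responses cancel in an average, so the choice of the 4583 genes favours a shared sign. In the direction of the average change, the median response of these genes was 0.51 in WT and 0.79 in KO. The KO response was the larger in 3209 (70.0%), and the median interaction in the direction of the change was 0.22. With 1 library left out these ran from 59.1% and 0.099 (without WT IMQ 5) to 76.5% and 0.319 (without KO IMQ 2). Of the 4583 genes, 251 had an interaction at an unadjusted p below 0.05, and for 2009 (43.8%) the 95% interval lay within 1 log2 unit of 0.

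Responses were also scored by library, as the mean log2 CPM difference from the untreated mean of the same genotype, signed by the direction of the call. Genes called in WT gave the KO IMQ libraries, which entered the choice through the shared estimate of the spread alone, scores of 0.67, 0.74, 1.05, 1.21 and 1.38, against -0.10 to 0.14 in untreated KO. Every KO IMQ library lay above every untreated one. Genes called in KO gave the WT IMQ libraries scores of 0.67, 0.72, 1.29, 0.29 and -0.04, against -0.15 to 0.13 in untreated WT. Here WT IMQ 5 lay among the untreated libraries and the other 4 lay above them. KO IMQ scores on the same genes ran from 0.68 to 1.35, with WT IMQ 2 and 3 within that range and the other 3 WT IMQ libraries below it. The KO libraries chose these genes, which raises their own scores. On genes called in WT the order was reversed: WT IMQ libraries scored 0.50 to 1.84 (median 1.44), against a KO IMQ median of 1.05. Neither order is a comparison of the size of the responses.

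**Figure D2:**
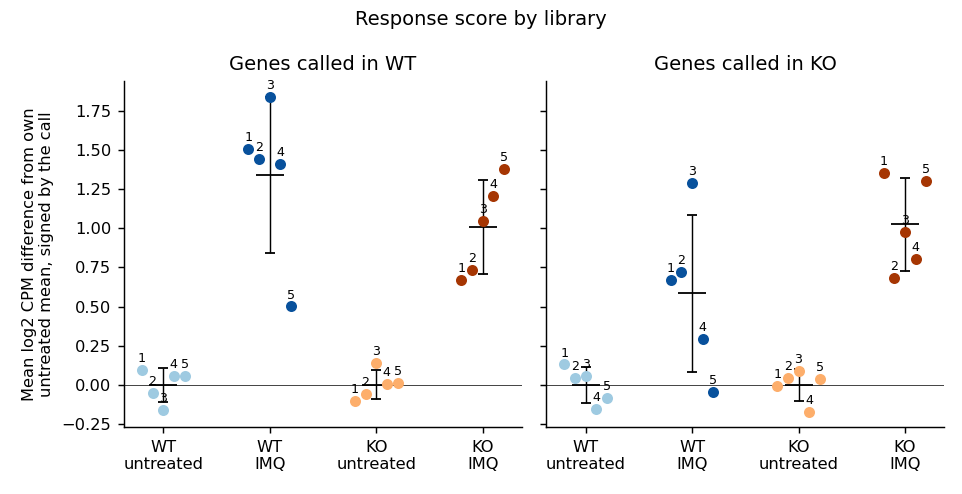
Points are libraries, numbered by replicate, and bars are the mean ± SD of 5 libraries; the y axis is the mean log2 CPM difference from the untreated mean of the same genotype, signed by the call. In the left panel all 5 KO IMQ libraries score 0.67 or more on genes chosen in WT, and in the right panel WT IMQ 5 scores -0.04 on genes chosen in KO while WT IMQ 3 scores 1.29.

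The genes with the smallest p of the average response show what a shared response looked like. Jak3, the kinase of the common gamma chain receptors, was measured at 27.2 to 31.5 CPM in untreated WT and at 60.7, 64.3, 61.9, 61.7 and 51.7 in WT IMQ. In KO it was measured at 32.9 to 49.8 CPM untreated and at 62.2, 69, 81.1, 83.9 and 74.3 under IMQ. IMQ libraries lay above untreated ones in both genotypes. Jak3 rose by 1.03 ± 0.11 in WT and by 0.77 ± 0.11 in KO (adjusted p = 0.000154 and 0.00224 by edgeR), and the interaction was -0.26 ± 0.15 with a 95% interval of -0.58 to 0.06.

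Lipg, which encodes endothelial lipase, had the largest fold among the 6 rises with the smallest p. It went from 5.38 to 6.64 CPM in untreated WT to 85.5, 55.2, 113, 37.7 and 7.25 in WT IMQ, and from 6.42 to 17.6 in untreated KO to 49, 54.8, 128, 116 and 169 in KO IMQ. WT IMQ 5 was again the library nearest to the untreated ones. The log2 fold changes were 3.33 in WT and 3.34 in KO, and the interval of the interaction was -1.44 to 1.45. Fam20c, a kinase of secreted proteins, rose by 2.46 and 2.37, Tspo, the mitochondrial translocator protein, by 1.11 and 0.90, Ddi2, an aspartic protease, by 0.76 and 1.07, and Sema6b, a semaphorin, by 1.69 and 1.06 in WT and KO. All 6 rises were called in both genotypes.

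The 6 falls with the smallest p were called in both genotypes as well. Bcl2a1b, an anti-apoptotic Bcl2 relative whose near-identical copies can share reads, stood at 1.93 to 3 CPM in untreated WT and 0.932 to 1.9 in WT IMQ, and at 1.5 to 2.29 in untreated KO and 0.598 to 0.994 in KO IMQ. It decreased by 1.05 in WT and 1.47 in KO. Ibsp and Col15a1, a bone matrix protein and a basement membrane collagen of stromal cells, decreased by 2.16 and 1.57 in WT and by 2.65 and 2.58 in KO. The 10 markers of stroma and endothelium moved with them, with median log2 fold changes of -1.67 in WT and -1.79 in KO, and their part in these falls was not tested. Dcun1d4, a regulator of cullin neddylation, decreased by 0.90 and 1.72, Dalrd3 by 0.51 and 0.65, and D8Ertd738e by 0.56 and 0.68.

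The next paragraphs describe the genes with the smallest p of the interaction. They were chosen by that value, so their sizes are descriptions, and the adjusted p of each was 0.640.

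Spata5l1, an AAA-family ATPase with a role in ribosome assembly, had the smallest p. It was measured at 4.16, 4.62, 3.49, 2.32 and 2.27 CPM in untreated WT and at 2.54, 1.69, 2.41, 2.13 and 2.01 in WT IMQ. In KO it was measured at 3.17, 3.39, 3.8, 3.18 and 2.49 CPM untreated and at 6.14, 4.14, 5.02, 4.22 and 3.78 under IMQ. All 5 KO IMQ libraries but 1 lay above every untreated KO library, and all WT IMQ libraries lay below the untreated WT mean. The interaction was 1.19 ± 0.30 (95% interval 0.56 to 1.81). It lies on chromosome 2, from 122630625 to 122632930 on the plus strand of mm10.

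Mir762 and Bcl7c moved together and cannot be separated. Mir762 is annotated at chromosome 7, 127708487 to 127708562 on the plus strand, inside Bcl7c (127661456 to 127708933, minus strand), which encodes a subunit of the BAF chromatin remodelling complex, and the strand setting of the counting is not given in the sources used here. Gene counts over a microRNA locus are also not a measure of the mature microRNA. Bcl7c stood at 11.2, 9.12, 9.38, 6.3 and 6.77 CPM in untreated WT, 7.34, 7.77, 7.07, 5.95 and 7.01 in WT IMQ, 8.31, 8.72, 13.5, 8.51 and 8.12 in untreated KO, and 17.3, 12.4, 14.4, 11.1 and 16.3 in KO IMQ. The responses did not overlap between the genotypes. The interaction was 0.89 ± 0.25 for Bcl7c and 1.67 ± 0.44 for Mir762, and in the KO response Bcl7c rose by 0.60 (adjusted p = 0.0232 by edgeR).

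Prg2 and Prg3, neighbouring genes on chromosome 2 for the major basic protein of eosinophil granules and its homolog, had the largest interactions among the 8 positive genes. Prg2 was measured at 27.6, 71.6, 60.6, 15.4 and 43.6 CPM in untreated WT and at 11.2, 20.5, 7.17, 12.3 and 14.3 in WT IMQ. In KO it was measured at 82.8, 46.7, 27.8, 20.1 and 40.9 CPM untreated and at 54.3, 66.4, 126, 18.7 and 114 under IMQ. WT IMQ libraries were low as a group, overlapping the untreated range only through WT IMQ 2, which lay above untreated WT 4, whereas KO IMQ spanned more than the untreated KO range. Prg2 fell by 1.74 ± 0.48 in WT (adjusted p = 0.0488 by edgeR), had a log2 fold change of 0.80 ± 0.47 in KO (adjusted p = 0.210), and had an interaction of 2.54 ± 0.67. Prg3 fell by 2.59 in WT (adjusted p = 0.0335), had 0.68 in KO (adjusted p = 0.392), and had an interaction of 3.27 ± 0.86.

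The other 7 eosinophil markers were split. Epx, eosinophil peroxidase, had log2 fold changes of -1.28 in WT and 1.30 in KO, Ear1 had -1.21 and 1.04, and Ear6 had -0.78 and 0.94; the latter 2 are eosinophil ribonucleases with near-identical copies. None of these 6 responses was called. Siglecf and Ccr3, a surface lectin and the eotaxin receptor, had negative values in both genotypes, and Siglecf fell in KO (-0.65, adjusted p = 0.0109 by edgeR; -0.44 in WT, adjusted p = 0.106). Il5ra had 0.68 and 0.96, and Ear2 had -0.33 and -0.31. The median of the 9 markers was -0.88 in WT and 0.80 in KO, and 5 of 9 had an interaction at an unadjusted p below 0.05, against 5.14% of all genes. Their mean per library was -0.80, -0.52, -1.81, -0.97 and -0.53 in WT IMQ and -0.05, 0.29, 0.81, -0.51 and 1.04 in KO IMQ, against -1.20 to 0.82 in untreated libraries. The lowest KO library, KO IMQ 4, lay just above the highest WT ones, and 8 of the 10 IMQ libraries lay inside the untreated range. The median interaction of the markers was 1.72, and at least 1.26 with any 1 library left out. The 2 calls in WT, Prg2 and Prg3, were both lost without any 1 of untreated WT 1, 2, 3 and 5 and WT IMQ 1 to 4, and 4 markers were called without WT IMQ 5.

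Of the remaining positive genes, Pcbd2, a dehydratase of tetrahydrobiopterin recycling, had 8.41 to 14.5 CPM in untreated WT, 6.97 to 10.1 in WT IMQ, 8.1 to 16.8 in untreated KO and 15 to 21.2 in KO IMQ. Its interaction was 0.98 ± 0.28, and it rose by 0.65 in KO (adjusted p = 0.0268 by edgeR). Tmem143, a membrane protein, had a WT response of 0.00 ± 0.21 and rose by 1.00 ± 0.21 in KO (adjusted p = 0.00669). Its KO IMQ libraries, at 7.36, 3.98, 5.43, 4.39 and 6.07 CPM, all lay above the untreated KO libraries, at 2.51 to 3.25. Zfp41, a zinc finger gene, had -0.45 in WT and rose by 0.74 in KO (adjusted p = 0.0404).

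Among the 8 negative genes, Slco3a1, an organic anion transporter gene on chromosome 7, had the smallest p. It was measured at 34.3, 31, 35, 36.7 and 40.7 CPM in untreated WT and at 32.3, 36, 31.5, 41.7 and 39.7 in WT IMQ. In KO it was measured at 86, 87.3, 63.4, 82.6 and 77.5 CPM untreated and at 24.3, 57.3, 46.6, 55.4 and 31.6 under IMQ. The untreated KO libraries lay above all others, and under IMQ the KO libraries fell to a range that covered the WT one. Slco3a1 fell by 0.88 ± 0.18 in KO (adjusted p = 0.00651 by edgeR) with 0.03 ± 0.18 in WT, and the interaction was -0.91 ± 0.26. Its average genotype difference of 0.70 ± 0.13 was also called (adjusted p = 0.0101), and it lies on the same chromosome as Arntl.

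Ctse, the endosomal protease cathepsin E, stood at 92.5, 105, 101, 112 and 114 CPM in untreated WT, 60.6, 65.3, 85, 92.6 and 130 in WT IMQ, 142, 97.6, 93.3, 131 and 115 in untreated KO, and 24.6, 60.7, 40.6, 61.3 and 46.7 in KO IMQ. It was lower than untreated in every KO IMQ library and in most WT IMQ libraries. It fell by 1.31 in KO (adjusted p = 0.0046 by edgeR), with -0.28 in WT (adjusted p = 0.492) and an interaction of -1.03 ± 0.31. Emilin2, an extracellular matrix glycoprotein, went the other way round: it rose by 0.70 in WT (adjusted p = 0.0185), from 337 to 463 CPM untreated to 523 to 939, with 0.03 in KO (adjusted p = 0.905).

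Acta1 and Mcam, skeletal muscle actin and the vascular adhesion molecule CD146, had interactions of -2.14 ± 0.60 and -1.49 ± 0.44. Acta1 rose in WT (1.86, adjusted p = 0.0275 by edgeR), where WT IMQ 4 had 4.17 CPM and the other 4 had 0.854 to 2.29, with a log2 fold change of -0.29 in KO. Mcam had 0.96 in WT and -0.53 in KO, neither of them called. The last 3 had small differences with small errors: Spata2, a partner of the deubiquitinase CYLD that overlaps Rnf114 on the opposite strand, had -0.45 ± 0.13, Prune, an exopolyphosphatase-like gene, had -0.61 ± 0.18, and Dhx8, a splicing helicase, had -0.35 ± 0.11. Spata2 and Dhx8 fell in KO by 0.38 and 0.37 (adjusted p = 0.00921 and 0.00651).

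**Figure D3:**
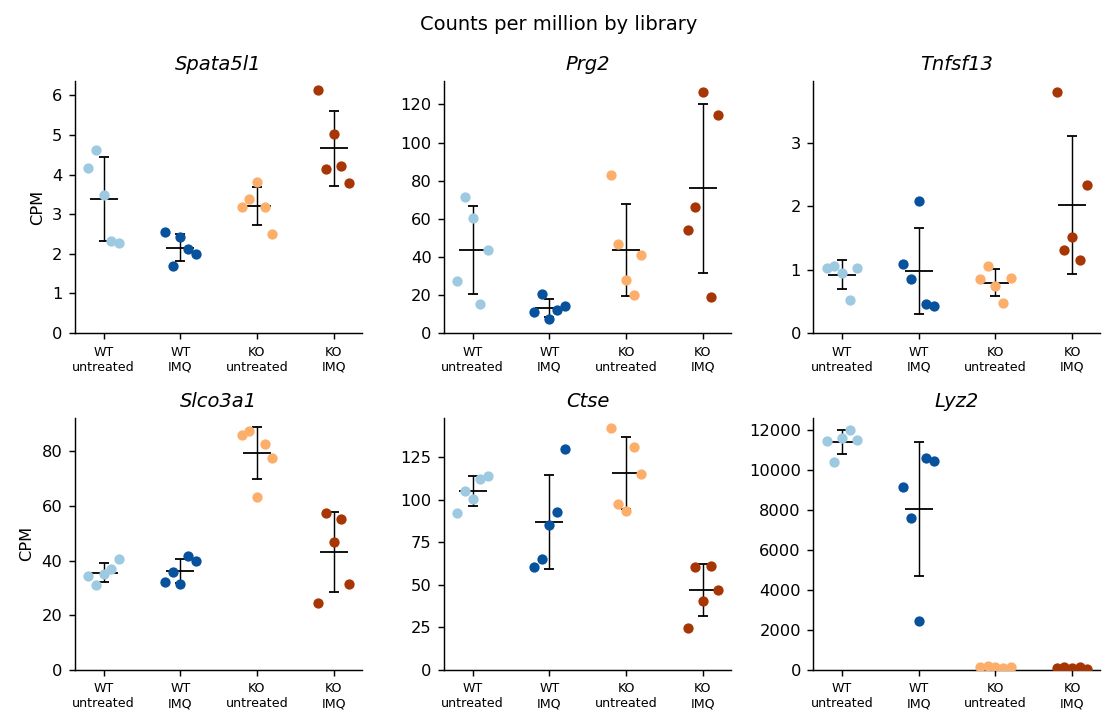
CPM of 6 genes on linear axes from 0, with 1 point per library and bars for the mean ± SD of 5 libraries. Spata5l1 is on average lower in WT IMQ and higher in KO IMQ. Prg2 is on average lower in WT IMQ, and its KO IMQ values span the untreated KO range. Slco3a1 and Ctse are lowest or fall in KO IMQ, 1 of 5 KO IMQ libraries carries the highest Tnfsf13 value (3.8 CPM), and Lyz2 separates the genotypes in both treatments.

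The TNF family ligands April (Tnfsf13) and Baff (Tnfsf13b), which sustain B cells and plasma cells, differed from each other. Tnfsf13 was low throughout: 1.02, 1.06, 0.954, 0.516 and 1.03 CPM in untreated WT, 1.08, 0.854, 2.08, 0.458 and 0.427 in WT IMQ, 0.848, 1.06, 0.74, 0.468 and 0.861 in untreated KO, and 3.8, 1.31, 1.51, 1.16 and 2.33 in KO IMQ. All KO IMQ libraries lay above all untreated KO libraries, and WT IMQ 3 lay within the KO IMQ range. Tnfsf13 rose by 1.34 ± 0.41 in KO (adjusted p = 0.0283 by edgeR) with 0.10 ± 0.41 in WT (adjusted p = 0.920). The interaction of 1.24 ± 0.58 had an unadjusted p of 0.0451 and an adjusted p of 0.640, and its 95% interval was 0.03 to 2.46. Tnfsf13 lies on chromosome 11, from 69682846 to 69685784 on the minus strand, within the annotated read-through gene Tnfsfm13, so a read there is not unique to it. Tnfsfm13 itself had 1 count over all libraries. Whether reads that fit both genes were left out, which would understate the level of Tnfsf13, was not tested.

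Tnfsf13b stood at 83 to 98.9 CPM in untreated WT and 84.1 to 92.9 in untreated KO, and at 56.2, 39.7, 5.83, 58 and 82.2 in WT IMQ and 29.9, 57.9, 39.8, 49.3 and 14.9 in KO IMQ. Every IMQ library lay below every untreated library. It fell by 1.21 in KO (adjusted p = 0.0433 by edgeR), had -0.93 in WT (adjusted p = 0.193), and had an interaction of -0.29 ± 0.58. Of the 20 TNF family ligands and receptors tested, 0 were called in WT and 5 in KO (25%), 1 higher and 4 lower. These shares were near those of all genes, 3.95% in WT and 23.5% in KO. The receptors Tnfrsf1b and Fas were among the 4, falling by 0.58 and 0.87 in KO with -0.08 and -0.24 in WT.

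Gene lists are described by their counts and medians. For each list the number of members called is read against 3.95% of all genes in WT and 23.5% in KO. The number of positive interactions is read against 51.2%, a share that was 49.2% with RLE factors and 67.6% under limma without TMM factors. No member of any list had a called interaction.

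**Figure D4:**
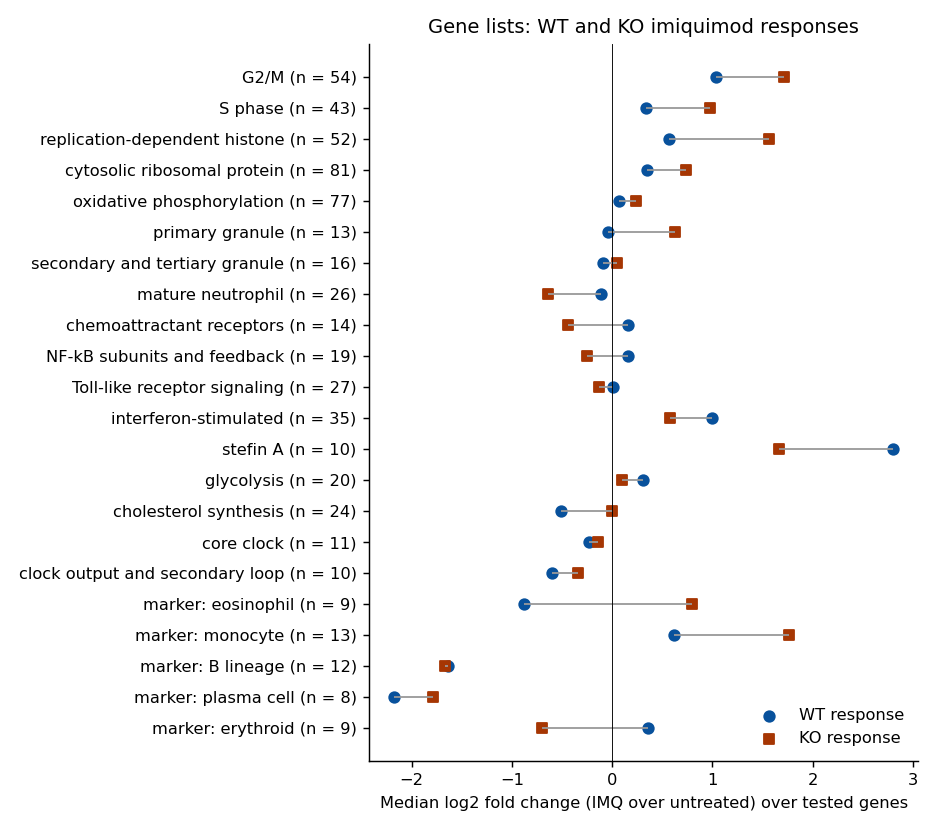
Median log2 fold change of IMQ over untreated for the tested genes of 22 lists, in WT (blue circles) and KO (brown squares). The cell cycle, histone and ribosomal lists lie further right in KO, mature neutrophil genes lie further left in KO, stefin A genes lie further right in WT, and eosinophil and erythroid markers lie on opposite sides of 0 in the 2 genotypes.

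Cell cycle genes had medians above 0 in both genotypes and were called mainly in KO. Of 54 G2/M genes, which act in mitosis, 51 rose in KO and 1 in WT (29 in WT by DESeq2), and the median log2 fold change was 1.72 in KO and 1.03 in WT. The interaction was positive in 52 of 54, with a median of 0.69, and 1 of 54 reached an unadjusted p below 0.05. With a replicate block within each genotype 45 of 54 did, but whether same-numbered libraries belong together is not stated in the sources used here. Mki67, the proliferation antigen Ki-67, averaged 221 and 458 CPM in untreated and IMQ-treated WT and 216 and 710 in KO, and rose in KO by 1.72 (adjusted p = 0.00526 by edgeR; 1.05 in WT, adjusted p = 0.0672). Anln, the cytokinesis protein anillin, had the smallest interaction p of the list: 1.47 in KO (adjusted p = 0.0046), 0.68 in WT (adjusted p = 0.106) and an interaction of 0.79 ± 0.34.

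The mean of the G2/M genes per library was 0.89, 1.07, 1.83, 0.04 and -0.33 in WT IMQ and 1.91, 0.93, 1.57, 1.02 and 1.96 in KO IMQ, as log2 differences from the untreated mean. WT IMQ 1 to 3 lay within or near the KO range, and WT IMQ 4 and 5 lay within the untreated range of -0.49 to 0.32. The count of G2/M genes called in WT therefore rested on single mice: it was 44 of 54 without WT IMQ 5, and between 0 and 4 without any other library. Without WT IMQ 3, 49 of 54 had an interaction at an unadjusted p below 0.05 and the median interaction was 1.14, still with 0 calls among all genes.

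Of 43 S phase genes, which replicate DNA, 25 rose in KO and 1 in WT (Rfc2, 0.34, adjusted p = 0.0299 by edgeR), with medians of 0.98 and 0.34. The interaction was positive in 41 of 43, with 4 at an unadjusted p below 0.05 (25 with the block within genotype). The KO count rested on single libraries, with 14, 11, 7, 10 and 8 called without untreated KO 1, 2 and 4 and KO IMQ 1 and 5. It was 35 without WT IMQ 3. Without WT IMQ 3 the WT median was -0.14, so the direction of the WT response of this list depended on that library. Cdca7, a chromatin remodelling cofactor, had the smallest interaction p: 37.5 CPM in WT IMQ against 40.5 untreated, and 50.1 in KO IMQ against 38.3, with an interaction of 0.50 ± 0.17. Of the 52 replication-dependent histone genes tested of 68, 18 rose and 3 fell in KO and 1 fell in WT, with medians of 1.57 and 0.57. Without untreated KO 1, 2, 4 or 5 or KO IMQ 1 or 5 the KO count was 10, 12, 7, 11, 9 and 11, and without KO IMQ 4 it was 31. Histone transcripts lack poly(A) tails and many copies are near-identical, so their counts are uncertain.

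Promoter sequences of these genes are shown because the G2/M list had the highest share of members called in KO of the 43 lists, 51 of 54. CCAAT boxes and the cell cycle homology region (CHR) are the known promoter elements of mitotic genes. Among the RefSeq promoter windows (GRCm38.p6, 250 bases before to 50 after a start site), CCAAT was found on either strand in 40 of 53 windows of the 48 G2/M genes matched (75.5%), against 37.4% of all 32851 windows. TTTGAA, the CHR core, was found in 34 of 53 (64.2%), against 17.9% of all windows. In the 31 S phase genes matched, CCAAT was found in 23 of 35 windows (65.7%) and TTTGAA in 5 of 35 (14.3%). A match describes the letters and is not a site shown to be used. In the stretches below, which end upstream of the start site, capitals mark CCAAT (or ATTGG on the other strand) and TTTGAA (or TTCAAA).
Mki67, chr7:135716462-135716577, minus strand: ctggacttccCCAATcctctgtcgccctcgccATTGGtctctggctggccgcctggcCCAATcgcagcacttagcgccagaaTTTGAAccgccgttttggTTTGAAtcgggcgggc
Kif11, chr19:37376327-37376378, plus strand: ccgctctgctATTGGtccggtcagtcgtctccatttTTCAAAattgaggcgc
Cdc20, chr4:118437344-118437406, minus strand: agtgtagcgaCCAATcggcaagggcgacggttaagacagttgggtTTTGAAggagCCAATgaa
Ckap5, chr2:91526707-91526741, plus strand: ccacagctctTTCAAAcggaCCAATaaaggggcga

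The genes of these 4 stretches rose in KO. Kif11, the mitotic kinesin Eg5, had log2 fold changes of 2.01 in KO and 1.28 in WT, Cdc20, the activator of the anaphase-promoting complex, had 1.67 and 0.94, and Ckap5, a microtubule polymerase, had 1.27 and 0.66, with adjusted p of 0.0055, 0.00805 and 0.0046 in KO by edgeR. None of these WT values was called, with adjusted p of 0.0628, 0.135 and 0.0955.

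Of 81 cytosolic ribosomal protein genes, 62 rose in KO and 0 in WT, with medians of 0.74 and 0.34. The interaction was positive in 78 of 81 and its median was 0.39. An unadjusted p below 0.05 was reached by 2 of 81, and by 31 with the block within genotype. Rps29 and Rpl31, of the small and large subunits, had the smallest interaction p: Rps29 had -0.06 in WT and rose by 0.54 in KO, and Rpl31 had 0.14 and rose by 0.62. The mean of the list was 0.18, 0.33, 1.15, -0.17 and -0.32 in WT IMQ and 1.05, 0.49, 0.59, 0.44 and 0.84 in KO IMQ. WT IMQ 3 had the highest value of all 10 libraries and the other 4 WT libraries lay below every KO one. Without WT IMQ 3 the WT median was 0.02 and 71 of 81 members had an interaction at an unadjusted p below 0.05, and without WT IMQ 5 the WT count was 19. The KO count was 40 without KO IMQ 1 and 41 without untreated KO 4. Of 77 oxidative phosphorylation genes, 17 rose and 3 fell in KO and 1 fell in WT, with medians of 0.23 and 0.07.

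Granule genes were taken by stage. Of 13 primary granule genes, the earliest made, 3 rose and 1 fell in KO and 1 rose in WT, with medians of 0.63 and -0.04 and a positive interaction in 11. The median interaction of 0.58 was 0.33 without KO IMQ 1 and 1.14 without WT IMQ 3. Man2b1, a lysosomal mannosidase, was the 1 member with an interaction at an unadjusted p below 0.05 (-0.57), and it fell in KO by 0.61. Mpo and Elane, myeloperoxidase and neutrophil elastase, had -1.05 and -0.87 in WT and 0.14 and 0.31 in KO, none of them called. Ctsc, the protease that activates the granule serine proteases, rose by 2.43 in KO (adjusted p = 0.00473 by edgeR) with 1.30 in WT (adjusted p = 0.0849). Its interaction of 1.13 was 0.21 without KO IMQ 1, the library with the highest monocyte markers, whose part was not tested. Of 16 secondary and tertiary granule genes, 2 fell in KO and 0 changed in WT, and the median interaction was -0.04. Olfm4, which marks a subset of neutrophils, was one of the 2, falling by 0.87 in KO with -0.25 in WT.

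Genes of mature neutrophils had lower fold changes under IMQ in KO than in WT. Their levels were not lower in untreated KO: the summed CPM ran from 20972.1 to 26194.9 there and from 18556.5 to 26424.5 in untreated WT. Of 26, 9 fell and 2 rose in KO and 1 rose in WT, with medians of -0.64 and -0.11. The interaction was negative in 24 of 26. Slc16a3, a lactate exporter, averaged 631 and 725 CPM in WT and 845 and 546 in KO, falling by 0.63 in KO (adjusted p = 0.0372 by edgeR) with 0.20 in WT. Csf2rb, the beta chain of the GM-CSF receptor, had 0.42 in WT and -0.20 in KO, neither called. The list mean was -0.09, -0.16, -1.73, 0.02 and -0.08 in WT IMQ and -1.80, -0.58, -0.67, -0.32 and -1.42 in KO IMQ. WT IMQ 3 lay with the lowest KO libraries, and the other 4 WT IMQ libraries lay above all KO ones. Without untreated KO 4, KO IMQ 1 or KO IMQ 5 the KO count was 5, 7 and 5, and without WT IMQ 3 the WT median was 0.09.

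Chemoattractant receptors followed the same pattern. Of 14, 4 fell and 2 rose in KO and 0 changed in WT, with medians of -0.45 and 0.16. Cxcr2, the receptor that draws neutrophils out of the marrow, was measured at 1201, 1046, 470, 1995 and 1889 CPM in WT IMQ, against 1135 to 1771 untreated, and at 320, 1238, 954, 1437 and 551 in KO IMQ, against 1511 to 1785 untreated. All KO IMQ libraries lay below all untreated KO libraries. The KO value of -0.89 did not pass the test (adjusted p = 0.0712 by edgeR), WT had -0.09, and the interaction was -0.80 ± 0.50. Cxcr4, the receptor that retains neutrophils, fell by 0.46 in KO (adjusted p = 0.0424) with -0.18 in WT. Ccr2, a monocyte receptor, was one of the 2 that rose, by 2.30 in KO (adjusted p = 0.0117) with 0.85 in WT.

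Ccr2 moved with other monocyte markers. Of 13, 8 rose in KO and 1 in WT, with medians of 1.76 and 0.62, among them F13a1, Fn1, Irf8 and Klf4 in KO and Cd300e in WT. Without KO IMQ 1 the median interaction was 0.12 in place of 1.05, and that of Ccr2 was 0.21 in place of 1.45. The list mean was 2.43 in KO IMQ 1, 1.13 in KO IMQ 2 and -0.46 to 0.35 in the other 3, and 0.24 to 0.60 in WT IMQ. KO IMQ 1, with the highest monocyte values, also had the lowest Cxcr2 and the highest Tnfsf13. The part of monocyte RNA in these results was not tested. Of the 6 basophil and mast cell markers tested, 1 (Ms4a2) rose in KO and 0 changed in WT, with medians of 0.82 and -0.27 and a median interaction of 1.15, and 0 had an interaction at an unadjusted p below 0.05.

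NF-kB subunits and feedback genes all had a negative interaction, 19 of 19, with medians of -0.25 in KO and 0.16 in WT. In KO 5 fell, and in WT 0 changed. Rela, the p65 subunit, fell by 0.38 in KO (adjusted p = 0.0176 by edgeR) with 0.05 in WT and an interaction of -0.43 ± 0.15. Bcl3, a nuclear coregulator, had 0.66 in WT and -0.25 in KO, neither called. The KO count was 2 or 3 without any 1 of untreated KO 1, 3, 4 and 5 and KO IMQ 1, 3 and 5. Under limma on log2(CPM + 0.1), 3 of the 19 had a positive interaction. Of 27 Toll-like receptor signaling genes, 21 had a negative interaction. Tlr7, the receptor of IMQ, stood at 17.8 to 33.3 CPM in untreated WT, 25.7 to 46.5 in WT IMQ, 25 to 36.9 in untreated KO and 18.8 to 50.3 in KO IMQ. The ranges overlapped, and the interaction was -0.25 ± 0.34. Tlr2, which recognises bacterial lipoproteins, fell by 1.21 in KO (adjusted p = 0.0223) with -0.14 in WT.

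Interferon-stimulated genes respond to type I interferon. Of 35, 1 rose in KO and 0 in WT, with medians of 0.57 and 1.00. The interaction was negative in 30 of 35 with a median of -0.20, which was 0.38 without WT IMQ 1 and -1.75 without KO IMQ 4. The list mean was 2.47 in WT IMQ 1 and -0.27 to 0.28 in the other 4, and 2.47 in KO IMQ 4 and -1.29 to -0.49 in the other 4. A single library in each genotype was thus high. The untreated libraries lay between -0.55 and 0.35, and 3 of the other 4 KO IMQ libraries lay below that range. Without WT IMQ 1 the interaction of Ifi44 was 0.38 and without KO IMQ 4 it was -2.15.

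Stefin A genes, a cluster of cysteine protease inhibitors with near-identical copies, rose in both genotypes. Of 10, 8 rose in WT and 7 in KO, and all 7 were among the 8. The median was 2.80 in WT and 1.66 in KO, the reverse of the order seen for the cell cycle. Stfa2 averaged 5.56 CPM in untreated WT, 156 in WT IMQ, 6.63 in untreated KO and 81.8 in KO IMQ, and rose by 4.81 and 3.62 (adjusted p = 0.0027 and 0.0046 by edgeR). Its interaction was -1.18 ± 0.84. The list mean was 2.35, 2.23, 3.05, 1.85 and 0.49 in WT IMQ and 0.14, 1.09, 1.88, 2.26 and 1.32 in KO IMQ, so the groups overlapped widely, and without WT IMQ 3 the median interaction was -0.32 in place of -0.88.

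Metabolic genes had interactions of both signs. Of 24 cholesterol synthesis genes, 3 fell in WT, and in KO 1 rose and 1 fell, with medians of -0.52 and 0.00. The interaction was positive in 22 and had an unadjusted p below 0.05 in 5. Mvk, mevalonate kinase, had the smallest interaction p of the list: -0.63 in WT, 0.37 in KO and an interaction of 1.00 ± 0.30. Without WT IMQ 2 the WT count was 0, and without WT IMQ 5 or KO IMQ 4 it was 6. Of 20 glycolysis genes, 6 rose in WT, and in KO 3 rose and 1 fell, with a negative interaction in 19. Slc2a1, a glucose transporter, averaged 58.5 and 106 CPM in WT and 80.3 and 86.5 in KO, and rose by 0.86 in WT (adjusted p = 0.0298 by edgeR) with 0.11 in KO.

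No clock gene had a called interaction. Of 11 core clock genes 0 changed in WT and 1 (Per2) fell in KO, and of 10 output and secondary loop genes 1 (Dbp) fell in WT and 0 changed in KO. Dbp, a clock-driven transcription factor, stood at 2.23 to 2.83 CPM in untreated WT, 0.927 to 1.62 in WT IMQ, 2.17 to 3 in untreated KO and 1.28 to 2.08 in KO IMQ. Every IMQ library lay below every untreated library of its genotype. Dbp fell by 1.01 in WT (adjusted p = 0.0164 by edgeR) and had -0.54 in KO (adjusted p = 0.0565), with an interaction of 0.47 ± 0.28. Nr1d1, the repressor REV-ERB alpha, had -0.74 in WT and -0.62 in KO, and its average response of -0.68 was called (adjusted p = 0.00823). Per2, a repressor of BMAL1, fell by 0.59 in KO (adjusted p = 0.0488) with -0.33 in WT, and Per1 had -0.32 and -0.46 amid a spread of 47.4 to 266 CPM in untreated WT. The largest interaction of the core clock genes was that of Per3, 0.86 ± 0.28, with -0.65 in WT and 0.21 in KO. Mice were killed in the morning, so these are levels at 1 phase of the day and not rhythms.

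E-boxes, the sequence bound by BMAL1 and CLOCK, are shown for Per1, Cry1 and Ciart, which were picked for their small fitted interactions. Tef, a clock output gene that also had CACGTG in its window, is not shown. CACGTG, which reads alike on both strands, was found in 2 of 15 windows of the 8 core clock genes matched (13.3%) and in 4 of 10 windows of the 9 output genes matched (40.0%), against 7.15% of all windows. No match in a window of this length says nothing about sites further away. Capitals mark CACGTG.
Per1, chr11:69098773-69098798, plus strand: cacccaagtcCACGTGcagggatgtg
Cry1, chr10:85185099-85185124, minus strand: tgccggtggtCACGTGgggtgcatgc
Ciart, chr3:95882257-95882354, minus strand: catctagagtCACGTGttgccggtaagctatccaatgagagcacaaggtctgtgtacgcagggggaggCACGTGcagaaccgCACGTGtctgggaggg
The interaction was -0.14 ± 0.63 for Per1, -0.03 ± 0.16 for Cry1 and 0.11 ± 0.29 for Ciart. Ciart is a clock-driven repressor with 3 E-boxes in its window. The interval of the interaction of Per1 was wide, -1.45 to 1.17. For Tef the interaction was 0.66 ± 0.53, and 0.34 to 0.94 with 1 library left out. Whether clock genes with an E-box differ as a set in their interaction was not tested.

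The responses of genes that differed between the genotypes over both treatments are given next. The average genotype difference called 44 genes (0.314%; 22 higher and 22 lower in KO, 0.157% each; 71 without WT IMQ 3 or without KO IMQ 4), of which 35 lie on chromosome 7, where Arntl is. Their median absolute difference was 1.97 and their median absolute interaction 0.46, with interactions from -3.57 to 2.68, and 6 of the 44 had an interaction at an unadjusted p below 0.05. The 95% interval of the interaction lay within 1 log2 unit of 0 for 16 of the 44. Trim12a, a Trim5 relative with near-identical neighbours, stood at 59.4 to 153 CPM in the 10 WT libraries and at 0.156 to 0.454 in the 10 KO libraries. Its interaction was -0.43 ± 0.39. Lyz2 had an interaction of 0.04 ± 0.40 beside an average difference of -6.38 ± 0.26.

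Ppfibp2, a liprin on chromosome 7, was the 1 gene of the 5 with the smallest p of the genotype difference whose interaction had an unadjusted p below 0.05 (0.0142). It stood at 3.88 to 4.73 CPM in untreated WT and 1.31, 1.42, 1.29, 1.9 and 3.64 in WT IMQ, and at 41.4 to 47.2 in untreated KO and 28.3, 36.9, 39.5, 34.4 and 27.9 in KO IMQ. IMQ libraries were lower than untreated ones in both genotypes, and WT IMQ 5 was nearest to the untreated level. Ppfibp2 fell by 1.21 in WT (adjusted p = 0.00975 by edgeR) with -0.41 in KO (adjusted p = 0.138), and the interaction was 0.80 ± 0.30 (adjusted p = 0.640). Without WT IMQ 5 its interaction was 1.19 and had an adjusted p of 0.0411, the only call of the interaction in any fit with 1 library left out.

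**Figure D5:**
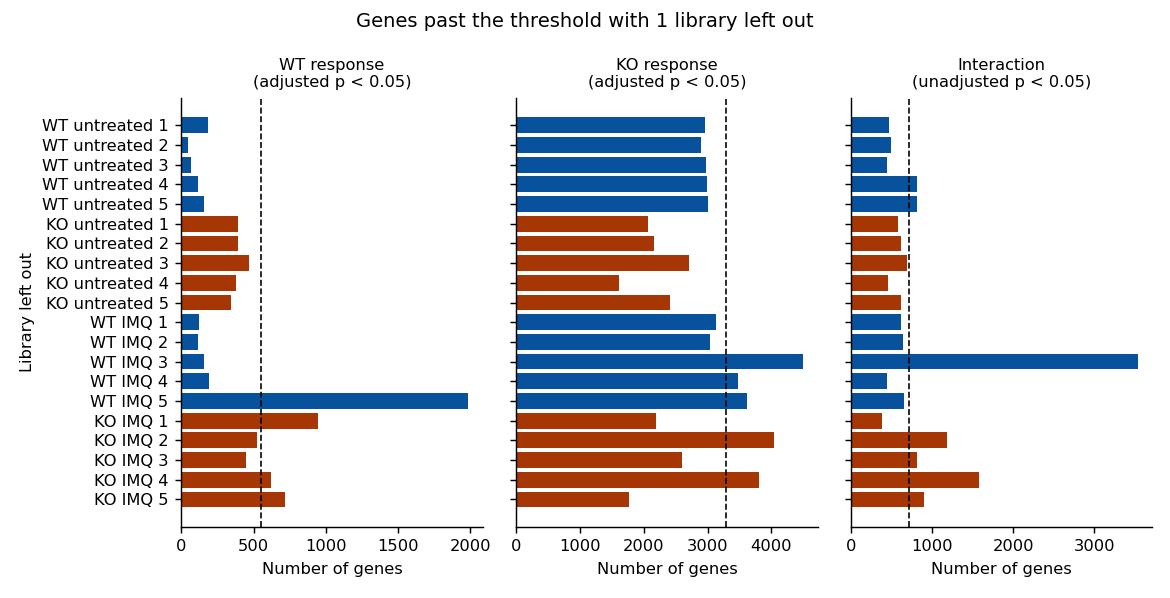
Number of genes past the threshold when the library on the y axis is left out, for the WT response, the KO response (both adjusted p below 0.05) and the interaction (unadjusted p below 0.05); blue bars are WT and brown bars KO libraries, and dashed lines are the counts with all 20 libraries (554, 3292 and 721). The interaction count is 3541 without WT IMQ 3 and 383 without KO IMQ 1, and the WT count is 1989 without WT IMQ 5.

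The number of genes with a small interaction p thus rested on single IMQ libraries. Without WT IMQ 3 it was 3541 (24.8%), without KO IMQ 4 it was 1583, without KO IMQ 2 it was 1189 and without KO IMQ 1 it was 383. It was also lower by more than 1.5 times without untreated WT 1 (474), untreated WT 3 (445), untreated KO 4 (460) and WT IMQ 4 (442). The number called was 0 in 19 of the 20 fits, where the smallest adjusted p ran from 0.128 to 0.967. WT IMQ 3 was the WT library with the lowest Lyz2, Tnfsf13b and Cxcr2 and the highest G2/M values, and KO IMQ 1 was the KO library with the lowest Cxcr2. The correlation of the responses was 0.55 without WT IMQ 3 and 0.77 without KO IMQ 1.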

How the data were processed

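Bone marrow neutrophil RNA was sequenced from 20 mice, 1 library each. The authors deposited raw read counts per gene, with no normalization, and 5 summary lines per library, which were left out. Per the labels' processing notes, bcl2fastq, STAR 2.7.8a and HTSeq 2.0.1 were used with mm10; the paper's methods name TopHat instead. The annotation and strand setting are not given in the sources used here, nor which library was run on which sequencer, so no batch could be set up. Reads on genes were 37.4% to 41.9% of each library. A series-wide table with the same counts was not used.

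Counts were fitted in R 4.3.3 with edgeR 4.0.16 (filterByExpr, TMM, quasi-likelihood F test on 4 groups, 2-sided). SE are |log2 fold change| divided by the square root of F. Per-library differences used log2 CPM with a prior count of 2. Alternatives were DESeq2 1.42.0, RLE factors, and no filter or at least 10 counts in every library. Another was limma 3.58.1 on log2(CPM + 0.1), where CPM were not scaled by TMM factors. Others were a replicate block, the 2 groups alone, and each library left out. After the data were seen, 2 joint omissions were added. The code of the fit was also run on simulated counts in which all groups had the same spread, unlike the untreated and IMQ libraries here. That run does not bear on how large an interaction these data could detect. No pair of libraries in a group was a duplicate (chi-square per degree of freedom 14.1 to 574). Over all genes pooled, counting error was thus small beside the spread between mice. Genes with few reads were not looked at apart.

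Genes named were the 8 per direction with the smallest interaction p and a mean CPM of at least 1, a fixed set of 13, up to 4 members of each described list with the smallest interaction p, the 6 per direction with the smallest p of the average response and the 5 of the average genotype difference; other members of a list were chosen after their values were seen. Some members of the cholesterol list are not reported here. A rule for genes called in 1 response with an opposite value of at least 1 in the other found 0 genes. The comparison and the lists were chosen with earlier results of these data known. Positions are from GENCODE vM21 by symbol (23376 of 24421), sequences from RefSeq; the promoter motifs were chosen after the values were seen.

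Replicate numbers are shared between groups, and whether same-numbered libraries belong together is not stated in the sources used here. Deviations of same-numbered untreated and IMQ libraries correlated at 0.128 to 0.426 in KO, at 0.073 to 0.384 in WT and at -0.497 to 0.343 across genotypes.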

Additional observations from a re-analysis of the deposited data

Results flagged for a closer look

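The highest or lowest value of each group of 5 libraries was compared with its neighbour for 132 groups of values, and 13 stood apart (a gap above 0.71 of the group's range). Chance flags about 1 in 20 groups. On the log2 CPM scale, WT IMQ 3 was low for Lyz2 (11.27, next 12.89), Tnfsf13b (2.54, next 5.31) and Spata2 (4.85, next 5.09), and WT IMQ 4 was low for Mir762 (-0.97, next -0.64). KO IMQ 1 was low for Prune (4.86, next 5.45). Among untreated KO libraries, replicate 3 was high for Bcl7c (3.75, next 3.12) and Dbp (1.58, next 1.23) and low for Nr1d1 (0.36, next 1.33), replicate 4 was high for Dhx8 (5.94, next 5.86) and Tlr7 (5.20, next 4.81), and replicate 5 was high for Tmem143 (1.70, next 1.43). Among untreated WT libraries, replicate 4 was low for Tnfsf13 (-0.96, next -0.07) and replicate 3 had the most reads on genes (79689416, next 70337381).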

How the results depend on the processing

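Number of genes called for the WT response: 1480 by DESeq2, 326 with no filter, 186 with the 2 groups alone, 2129 without both WT IMQ 5 and KO IMQ 2, and 899 without both WT IMQ 3 and KO IMQ 1. The average genotype difference had 102 by DESeq2 and 68 without both WT IMQ 3 and KO IMQ 1, and the latter omission gave 2756 genes with an unadjusted interaction p below 0.05. The correlation of the responses was 0.376 with no filter, where low counts enter. With 1 library left out, the ranges were 48 to 1989 genes (WT response), 1612 to 4499 (KO response), 0 to 1 (interaction called), 383 to 3541 (interaction, unadjusted) and 0.548 to 0.770 (correlation), and 39 to 71 (average genotype difference).

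With the replicate number as a block, 190 genes were called for the WT response, 3114 for the KO response and 0 for the interaction (901 unadjusted). With a block within each genotype, these were 474, 3983, 0 and 1600.

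The limma fit used CPM without TMM factors, and there the median interaction of all genes was 0.19, against 0.014 in the edgeR fit. The interactions of some named genes changed sign, and the cause was not tested. Under limma on log2(CPM + 0.1) they were 0.0021 for Per2, 0.17 for Tnfsf13b, 0.11 for Cxcl2, 0.30 for Fam20c, 0.0057 for Tspo, 0.063 for Dalrd3 and 0.068 for D8Ertd738e. Without both WT IMQ 3 and KO IMQ 1 they were -0.11 for Lyz2, -0.30 for Ccl2, 0.15 for Stfa3, 0.15 for Fam20c and -0.10 for Inppl1. Without both WT IMQ 5 and KO IMQ 2 they were -0.088 for Lipg and 0.11 for Ibsp. Lipg had -0.0011 with RLE factors and Fam20c had 0.021 with the block within genotype. With 1 library left out, ranges that crossed 0 were -0.23 to 0.53 for Arntl, -0.14 to 1.69 for Ccl2, -0.20 to 0.013 for Dalrd3, -0.079 to 1.20 for Derl3, -0.33 to 0.11 for Fam20c, -0.72 to 0.099 for Ibsp, -1.75 to 0.17 for Ifi204, -2.15 to 0.38 for Ifi44, -0.00091 to 0.47 for Inppl1, -0.25 to 0.39 for Lipg, -0.17 to 0.20 for Lyz2, -0.0084 to 0.26 for Nr1d1, -0.57 to 0.15 for Per1 and -0.56 to 0.012 for Tnfsf13b. Interactions of named genes kept their sign and their side of the threshold in 3360 other comparisons, changed sign in 48 and passed the threshold in 1.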

Other observations

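Immediate early genes, which respond within minutes to stimulation, had lower values under IMQ in both genotypes. Of 25, 7 fell and 1 rose in KO and 0 changed in WT, with median log2 fold changes of -0.70 and -0.26 and a negative interaction in 20. Egr1, a zinc finger factor, averaged 499 and 225 CPM in untreated and IMQ-treated WT and 501 and 102 in KO, and fell by 2.29 in KO (adjusted p = 0.00775 by edgeR) with -1.15 in WT. The chemokines Ccl4 and Cxcl12 fell in both genotypes, by 2.01 and 1.77 in WT and by 2.35 and 1.96 in KO. Cxcl12 is also among the 10 markers of stroma and endothelium, which had medians of -1.67 in WT and -1.79 in KO. The part of stromal RNA in its fall was not tested. Thbs1, which encodes the platelet and matrix protein thrombospondin 1, averaged 1574 and 194 CPM in WT and 1610 and 28.2 in KO, and its interaction of -2.81 ± 1.30 had an unadjusted p of 0.0433. Saa3, an acute-phase protein gene, rose by 5.69 in WT and 5.78 in KO from averages below 0.1 CPM.

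Of 18 interleukin-1 and inflammasome genes, 2 rose in WT, and in KO 2 rose and 3 fell. Pycard, the adaptor ASC, rose by 0.82 in WT and 1.00 in KO, and Nlrc4, a sensor, rose by 1.70 and 1.97. Il1b and Nlrp3 fell in KO by 2.02 and 2.16, with -1.03 and -0.98 in WT. Markers of plasma cells, which secrete antibodies, fell in both: 6 of 8 in WT and 4 of 8 in KO, with medians of -2.17 and -1.79. Jchain, which joins IgM and IgA subunits, averaged 577 and 98 CPM in WT and 567 and 89.1 in KO. All 9 erythroid markers tested had a negative interaction, with a median of -1.22 and none at an unadjusted p below 0.05, and the highest of their means per library was 2.34, in WT IMQ 3. These genes were chosen for description after their values were seen.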
